A study of Mus musculus with 14 samples.

Results

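Kinesin motors and cytoplasmic dynein subunits were described across mouse motoneurons, interneurons and neural progenitors. They are the gene entries whose symbol begins with Kif, Kifc, Klc, Dync1, Dynll, Dynlt or Dctn in the forms the symbol rule allows. This gave 58 genes of 22814 symbols in the table. They fall into 12 mitotic motors, 20 kinesins and kinesin light chains of axonal and cargo transport, 12 other kinesins, 8 dynein subunits and 6 dynactin subunits.

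Motoneurons labelled 218DKO (here DKO), a double knockout of the microRNA miR-218, which is enriched in motoneurons, carried the Hb9::gfp reporter, were sorted as GFP positive at E12.5 and gave 2 libraries. The mature microRNA was not measured in these poly(A)-selected RNA-seq libraries, so the knockout was not checked here. WT motoneurons with the same reporter, sort and stage gave 6 libraries. WT spinal interneurons of E12.5 gave 1 library each, sorted for tdTomato switched on by a Cre driver: V1 (En1:cre;Rosa26:LSL:tdTomato), V2a (a Cre driver of that class with Rosa26:LSL:tdTomato) and V3 (Sim1:cre;Rosa26:LSL:tdTomato). WT mouse embryonic stem (mES) cells, differentiated to day 4 with retinoic acid and a sonic hedgehog agonist, gave 1 library of motoneuron progenitors (mES pMN, Olig2:cre;Rosa26:LSL:tdTomato, tdTomato positive) and 1 of spinal neural progenitors (mES NP, no reporter, unsorted). A Cre driver marks cells that once expressed it as well as their descendants, and Hb9::gfp marks cells by the activity of 1 promoter. A floor plate sample was not analysed here. The labels do not say whether replicates came from separate animals, so each p measures only the spread between these samples.

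Kinesins and cytoplasmic dynein are motors that walk along microtubules using ATP. In dividing cells, a set of kinesins builds the spindle, moves chromosomes and completes cytokinesis. In neurons, which have left the cell cycle, other kinesins carry vesicles, mitochondria and RNA out along the axon, and dynein with its activator dynactin carries cargo back to the cell body. Motoneurons send their axons out of the spinal cord to muscle, and variants of several of these motors cause diseases of long axons.

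Values are the authors' signal, a length-scaled abundance that was scaled between libraries and is comparable between genes. Approximate depth, from the steps between low values, was 7.46 and 15.5 M reads in the DKO libraries, 11.8 to 28.1 M in WT motoneurons, 16.2 to 17.5 M in interneurons and 23.4 to 25.8 M in mES progenitors. A count of 3 reads in a transcript of 2000 bases corresponded to a signal of 3.94 in the shallowest and 1.01 in the deepest library, and this covers counting error only. In 7 of the 58 genes at least 1 library lay under its signal for 3 reads. Kif2b was listed at 0 in every library and Kif12 had at most 0.727, so 56 genes were tested. The summed motoneuron markers were 9012 to 9637 in DKO and 7934 to 9379 in WT motoneurons, at most 1564 in interneurons and at most 238 in mES progenitors. The summed neuron markers were 52170 to 52670 in DKO motoneurons, 60780 to 84100 in WT motoneurons, 32010 to 55430 in interneurons and 713 to 1176 in mES progenitors. Each interneuron library was the highest of the 3 for the markers of its own class, with 7451 in V1, 10690 in V2a and 5808 in V3. In such bulk libraries, fewer cells of a type and less RNA per cell cannot be told apart. The ribosomal RNA gene Rn45s had 10200, 27940 and 14360 in WT motoneuron replicates 2, 3 and 4, and 644, 2345 and 4275 in WT replicates 1, 5 and 6. It had 1647 and 1112 in the DKO libraries. These 2 sets of WT replicates were also fitted alone. The part of Rn45s in the differences was not tested.

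Differences were tested with limma on log2(signal + 1) over all genes whose mean signal reached 1, with Benjamini-Hochberg adjustment over all of them, and a gene was called at an adjusted p under 0.05. In DKO against WT motoneurons, 6 of the 56 motor genes were called, 3 higher and 3 lower, where 8.22% of all 16124 genes were called (3.3% higher and 4.92% lower). In WT motoneurons against interneurons, 20 were called, 15 higher and 5 lower, where 33.1% of all 16349 genes were called (17.8% higher and 15.3% lower). In WT motoneurons against mES progenitors, 50 were called, 31 higher and 19 lower, where 66.4% of all 16968 genes were called (30.1% higher and 36.3% lower). Calls of at least 2-fold were 2 higher and none lower in DKO against WT motoneurons (2.44% of all genes in either direction), 3 higher and 5 lower against interneurons (13.5%), and 24 higher and 18 lower against mES progenitors (51.8%). The median log2 difference of the motor genes was -0.14, 0.12 and 0.81 in these comparisons, and that of all genes tested was 0.002, -0.045 and -0.12. All comparisons use the same 6 WT motoneuron libraries. Source, stage and cell type cannot be told apart between the embryonic motoneurons and the mES progenitors.

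**Figure D1:**
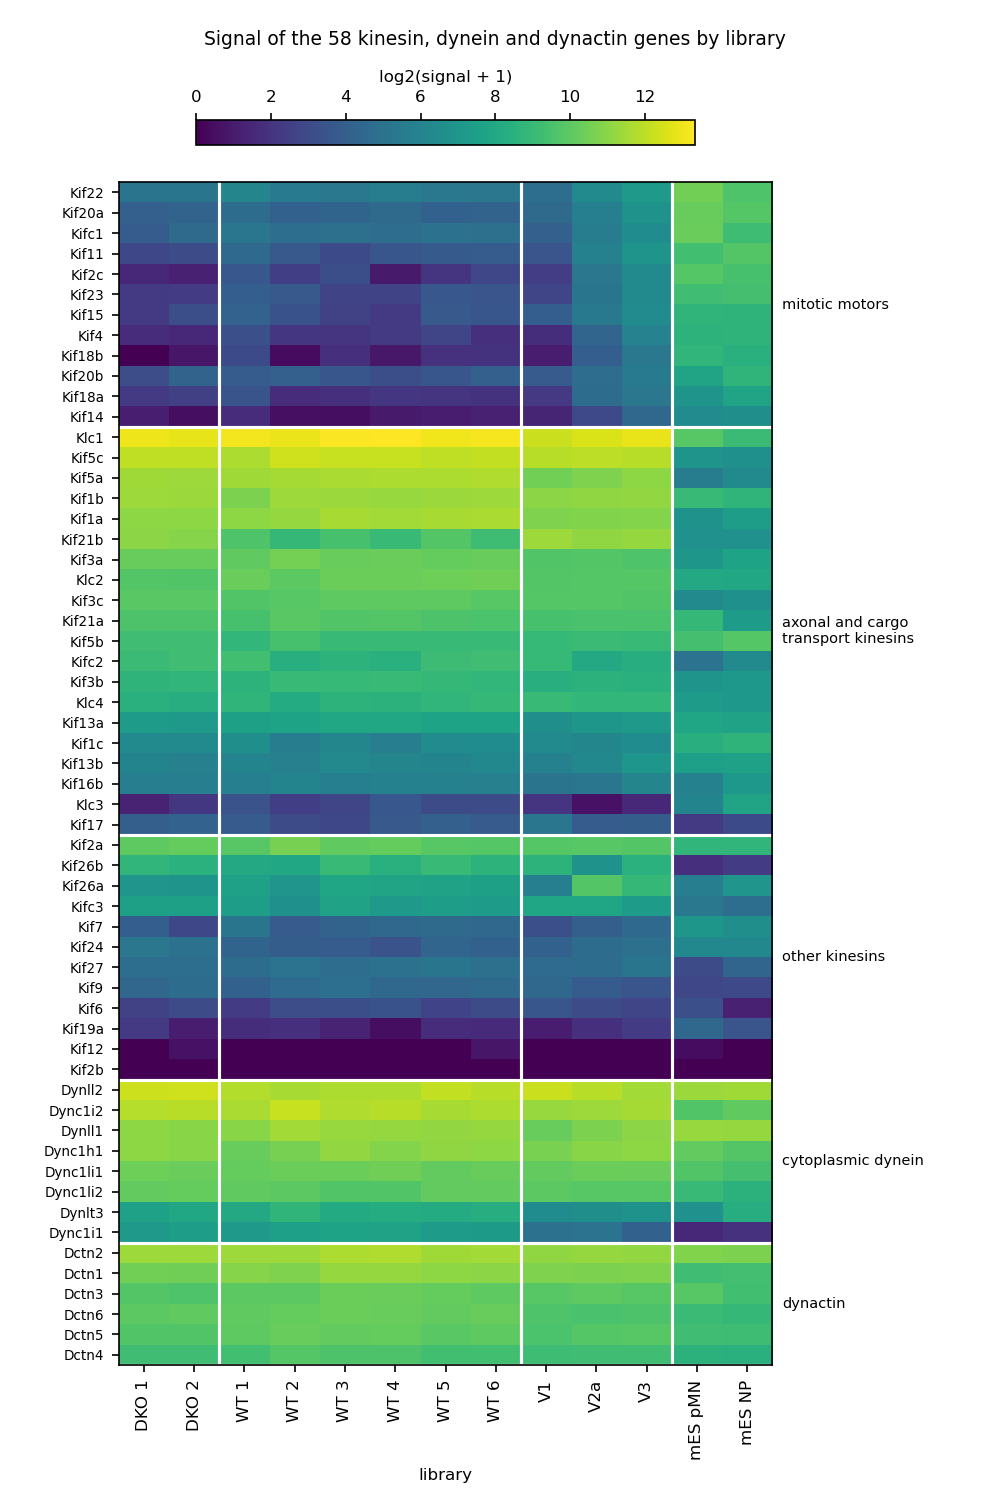
Signal of each of the 58 genes (rows, grouped by list) in each of 13 libraries (columns), as log2(signal + 1). The 12 mitotic motors are dark in motoneurons and in the V1 library and bright in the 2 mES progenitor libraries, with V2a and V3 between, while Klc1, Kif5c, Kif5a, Kif1a and Kif1b are bright in all neurons.

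The mitotic motors were the list with the widest range. Summed over its 12 genes, the signal was 94.7 and 123 in the DKO libraries, and 134, 148 and 235 (lowest, median and highest) in WT motoneurons. It was 124 in V1, 449 in V2a and 907 in V3 interneurons, and 7648 in mES pMN and 6422 in mES NP. Against mES progenitors, 12 of 12 fell in WT motoneurons, with log2 differences between -7.11 and -4.53 and a median of -5.59, and groups of all 12 did not overlap, as was so for 66.3% of all genes.

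Kif11, the motor that slides spindle microtubules apart, had a signal of 6.998, 12.46 and 22.5 (lowest, median and highest) in WT motoneurons, against 633 in mES pMN and 860 in mES NP. Even the highest motoneuron library lay far under both progenitor libraries. The log2 difference was -5.78 ± 0.36 (SE, adjusted p = 2.44e-07, limma). Kif2c, which depolymerises microtubules at centromeres, averaged 5.69 ± 3.74 in WT motoneurons and 796 ± 134 in mES progenitors (SD, n = 6 and 2 libraries) and differed by -7.11 on the log2 scale (adjusted p = 1.96e-06, limma). The other wide differences were those of Kif18b, which acts on astral microtubules (-6.96), Kif4, a chromosome arm motor (-6.26), Kif23, part of the centralspindlin complex of cytokinesis (-5.93), Kif20a, which brings Aurora B to the midzone (-5.65), Kif14, a cytokinesis motor (-5.54), Kif15, which can stand in for Kif11 (-5.43), and Kif18a, which limits chromosome oscillations (-5.15). Kifc1, which focuses spindle poles (-4.80), Kif22, a DNA-binding motor (-4.54), and Kif20b, which acts late in cytokinesis (-4.53), showed smaller differences. These log2 values understate the fold of motors with low signal in WT motoneurons, since 1 was added to each signal. In Kif18b, Kif2c and Kif14, 2, 1 and 1 of the 6 WT libraries also lay under the signal of 3 reads. Kif20a shares 1271 exonic bases with Cdc23, and Kif4 shares 832 with Pdzd11. Reads of these overlaps cannot be assigned without strand.

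Promoters of these motors from RefSeq (GRCm38.p6), from 250 bases before to 50 after the start, are shown because the genes moved together across the libraries. In the lines below, capitals mark TTTGAA, the core of the cell cycle genes homology region (CHR), and CCAAT, on either strand. Kif11 lies on chr19:37376132-37376431 (plus strand), Kif22 on chr7:127042371-127042670 (minus strand), Kif23 on chr9:61946750-61947049 (minus strand) and, for contrast, the neuronal kinesin gene Kif5c on chr2:49619036-49619335 (plus strand).
Kif11: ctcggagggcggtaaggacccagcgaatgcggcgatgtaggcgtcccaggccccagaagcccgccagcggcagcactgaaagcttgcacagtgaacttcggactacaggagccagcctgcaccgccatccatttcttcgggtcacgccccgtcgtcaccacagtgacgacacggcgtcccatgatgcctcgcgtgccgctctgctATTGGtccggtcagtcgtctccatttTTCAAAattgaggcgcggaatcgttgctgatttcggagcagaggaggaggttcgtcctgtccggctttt
Kif22: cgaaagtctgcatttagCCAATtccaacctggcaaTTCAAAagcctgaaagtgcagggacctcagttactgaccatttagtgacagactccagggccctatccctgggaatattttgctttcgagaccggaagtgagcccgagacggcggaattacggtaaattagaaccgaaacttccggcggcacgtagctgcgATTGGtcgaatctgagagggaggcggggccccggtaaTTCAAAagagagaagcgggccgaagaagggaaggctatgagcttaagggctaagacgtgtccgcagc
Kif23: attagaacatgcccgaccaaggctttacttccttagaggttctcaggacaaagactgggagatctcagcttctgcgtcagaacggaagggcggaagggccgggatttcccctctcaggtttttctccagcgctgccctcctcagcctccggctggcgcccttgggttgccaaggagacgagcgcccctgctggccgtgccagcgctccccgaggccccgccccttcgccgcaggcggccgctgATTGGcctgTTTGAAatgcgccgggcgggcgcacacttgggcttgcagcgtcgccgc
Kif5c: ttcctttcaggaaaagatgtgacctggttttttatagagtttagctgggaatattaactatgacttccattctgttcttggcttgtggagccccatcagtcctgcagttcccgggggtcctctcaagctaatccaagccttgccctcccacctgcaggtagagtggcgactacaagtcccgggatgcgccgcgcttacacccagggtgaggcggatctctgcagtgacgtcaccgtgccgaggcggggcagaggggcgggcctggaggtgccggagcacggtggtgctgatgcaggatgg
The match to TTTGAA began 19 bases before the start in Kif11, 215 and 17 before it in Kif22 and 2 after it in Kif23, and Kif5c held neither motif in this window. Of the 11 mitotic motors with a promoter in the table, 10 (90.9%) held TTTGAA, where 20.2% of all 27025 genes did. The exception was Kif18a. The count of 10 includes Kif14, Kif2c and Kif4, whose windows lay wholly inside the genes as annotated in GENCODE M21. Their matches are therefore not at the annotated gene start. TTTGAA was found in 1 of 14 transport kinesins (7.14%), 0 of 6 dynein subunits, 1 of 4 dynactin subunits and 2 of 10 other kinesins. Among these, the matches in Kif1a, Dctn1 and Kif27 also lay in windows inside the gene. How often this was so over all genes was not tested. CCAAT was found in 7 of 11 mitotic motors (63.6%), against 41.1% of all genes, and both motifs together in the same 63.6%, against 8.97%. A match is a description of letters in this window and shows no binding.

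In WT motoneurons against interneurons, 4 of 12 mitotic motors were called, all lower: Kif15 (-2.004 ± 0.55 on the log2 scale, SE, adjusted p = 0.0186), Kif14 (-1.93), Kif18a (-1.90) and Kif20a (-1.35). The list's median was -1.65, with all 12 values negative, and no member's groups were separate, where 33.3% of all genes did not overlap. The spread lay within the interneurons. Kif11 had a signal of 6.998, 12.46 and 22.5 (lowest, median and highest) in WT motoneurons, against 10.5 in V1, 56.8 in V2a and 118 in V3. Of the 12 motors, 9 in the V1 library lay within the range of the WT motoneurons and 3 below it, while all 12 lay above it in V2a and in V3. By the rule for single libraries, 8 of the 12 reached 50 in 1 interneuron library with at least a 3-fold range between libraries, from 4.602-fold in Kif20a to 17.4-fold in Kif4, where 5.47% of all 16460 genes did. All 4 calls were lost without V2a (median -1.46) and without V3 (median -0.82), and all 12 motors were called lower without V1 (median -2.64). In these fits 9.11%, 10.7% and 13.2% of all genes were called lower. Kif18a also lost its call without WT replicate 2, 3, 4, 5 or 6 (adjusted p 0.0658 to 0.0713) and Kif14 without WT replicate 3 (adjusted p = 0.0512). Kif11 missed the threshold (adjusted p = 0.0554) and passed it without WT replicate 1 (adjusted p = 0.0475).

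The 6 cycling-cell markers (Mki67, Top2a, Ccnb1, Cdk1, Aurkb and Mcm2, none of them a motor) moved with the mitotic motors. Their summed signal was 54.0 to 58.9 in DKO motoneurons, 112.5 to 212 in WT motoneurons, 82.5 in V1, 541 in V2a, 1268 in V3 and 9903 to 11410 in mES progenitors. Their part in these differences was not tested. The summed blood marker signal was 5.7 to 1377 in WT motoneurons, against 194 in V1, 11140 in V2a and 815 in V3. The summed mesenchyme markers were 7.0 to 198.5 in WT motoneurons, against 14.4 in V1, 202 in V2a and 759 in V3. The summed neural progenitor markers were 3956 to 5415 in WT motoneurons, against 824 in V1, 2306 in V2a and 3642 in V3. Most of this sum was Vim, with 3601 to 5184 in WT motoneurons, 495 in V1, 1553 in V2a and 2594 in V3. In V2a and V3, Sox2, Nes, Hes5 and Pax6 lay above every WT motoneuron library, and Vim and Olig2 lay below. The summed endothelium markers were 3.3 to 39.8 in WT motoneurons, against 2.3 in V1, 115 in V2a and 81.5 in V3. The part of these lists in the differences was not tested.

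**Figure D2:**
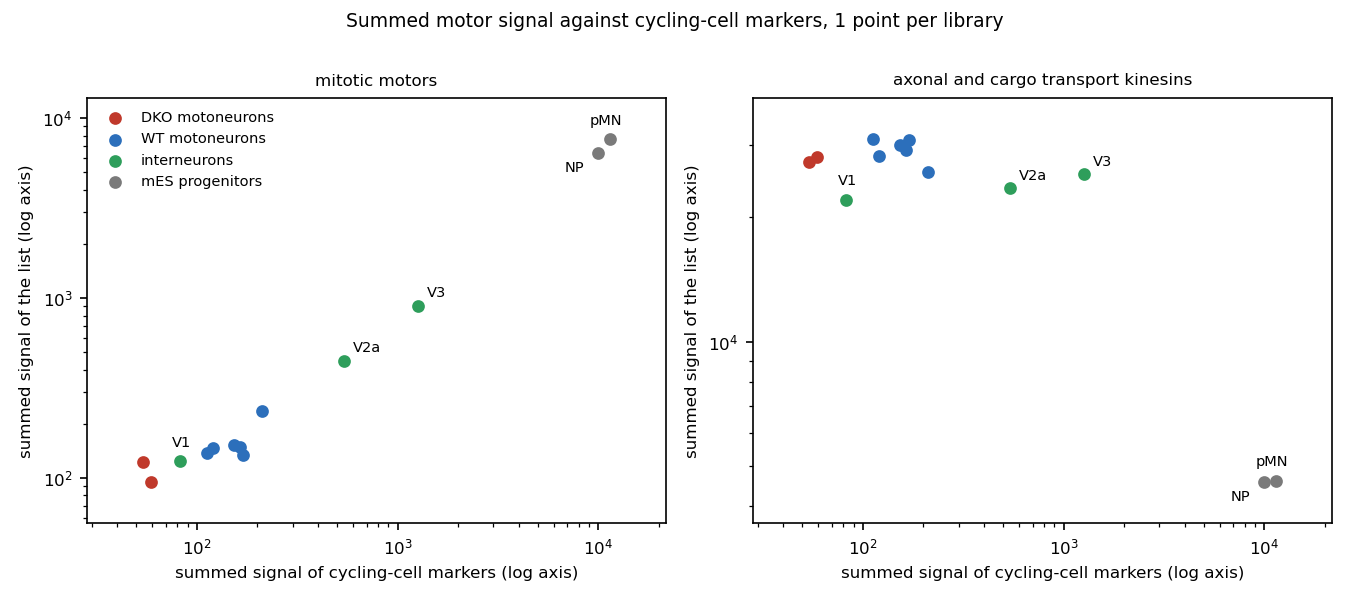
Summed signal of the 12 mitotic motors (left) and the 20 transport kinesins (right) against the summed signal of 6 cycling-cell markers, both on log axes, 1 point per library and coloured by group. The mitotic sum lies between 94.7 and 235 in motoneurons and V1 and reaches 7648 in mES pMN, while the transport sum is at least 22020 in all neurons and at most 4604 in mES progenitors.

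In DKO against WT motoneurons, 0 of 12 mitotic motors were called by limma, and 2 had an unadjusted p under 0.05. Of the 12 log2 differences, 11 were negative, with a median of -0.62. Kif18b and Kif2c lay under the signal of 3 reads in 2 DKO libraries and Kif14 in 1. With 10 in place of 1 added to each signal, 11 were still negative and the median was -0.28. Over the 5 motors with a mean signal of at least 10, all 5 were negative and the median was -0.37. Kif23 had a signal of 3.81 and 4.01 in the DKO libraries, against 5.70, 10.9 and 15.0 (lowest, median and highest) in WT motoneurons. The groups were separate, but the difference of -1.10 ± 0.40 (SE) had an adjusted p of 0.115. Kifc1 had 13.5 and 23.7 in DKO and 26.4, 29.3 and 36.4 in WT motoneurons (adjusted p = 0.111). Kif11 had 6.504 and 7.26 in DKO libraries, against 6.998 to 22.5 in WT libraries, and overlapped (adjusted p = 0.218). Kif20b had 7.98 and 17.7 in DKO and 8.27 to 15.9 in WT motoneurons, so that the DKO libraries spanned the WT range. The median was -0.35 without DKO replicate 1 (0 unadjusted p under 0.05) and -0.76 without DKO replicate 2. With limma array weights, 3 of the 12 were called lower, where 13.2% of all genes were. The summed cycling markers lay lower in both DKO libraries than in any WT library, as given above, and so did 4 of the 6 genes. The summed neural progenitor markers were 2040 to 2414 in DKO and 3956 to 5415 in WT motoneurons, with 1 of 6 genes (Vim) below every WT library. The part of these markers in the difference was not tested.

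Kinesin heavy chains of the Kif5 family carry cargo along axons, usually bound to light chains. Kif5b is the widely expressed heavy chain, and Kif5a and Kif5c are enriched in neurons. The family's make-up was reversed between neurons and progenitors. Kif5b made up 7.85% to 7.99% of the summed Kif5 signal in DKO motoneurons, 6.04% to 7.85% in WT motoneurons and 7.74% to 8.36% in interneurons, against 80.4% in mES pMN and 83.2% in mES NP. Kif5c made up 55.4% to 56.7% in DKO motoneurons, 51.3% to 59.5% in WT motoneurons, 59.2% to 67.0% in interneurons and 9.29% to 14% in mES progenitors. Kif5a held the remainder.

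Kif5a had a signal of 2723, 3222 and 3421 (lowest, median and highest) in WT motoneurons, against 46.9 in mES pMN and 82.2 in mES NP. It rose by 5.63 ± 0.19 log2 units (SE, adjusted p = 3.13e-09, limma). Kif5c had 3353, 4539 and 5317 in WT motoneurons, against 118 in mES pMN and 101 in mES NP, and rose by 5.32 ± 0.17 log2 units (adjusted p = 2.45e-09, limma). Kif5b moved the other way: it averaged 538 ± 84.7 in WT motoneurons and 793 ± 164 in mES progenitors (SD, n = 6 and 2 libraries), a difference of -0.56 (adjusted p = 0.017, limma) that was lost without mES NP (-0.35, adjusted p = 0.188). Its groups overlapped through WT replicate 2.

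Between neurons, Kif5a alone of these heavy chains was called. It had 2723, 3222 and 3421 (lowest, median and highest) in WT motoneurons, against 1437 in V1, 1700 in V2a and 2160 in V3. Every motoneuron library lay above every interneuron library, and the log2 difference was 0.84 ± 0.13 (SE, adjusted p = 0.000907, limma). Kif5c differed by 0.16 (adjusted p = 0.378, limma) and Kif5b by 0.07 (adjusted p = 0.676, limma), and whether Kif5a differs from them in this was not tested. In DKO against WT motoneurons none of these heavy chains was called, with log2 differences of -0.19 in Kif5a, 0.18 in Kif5b and -0.06 in Kif5c and adjusted p (limma) of 0.302, 0.459 and 0.849.

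**Figure D3:**
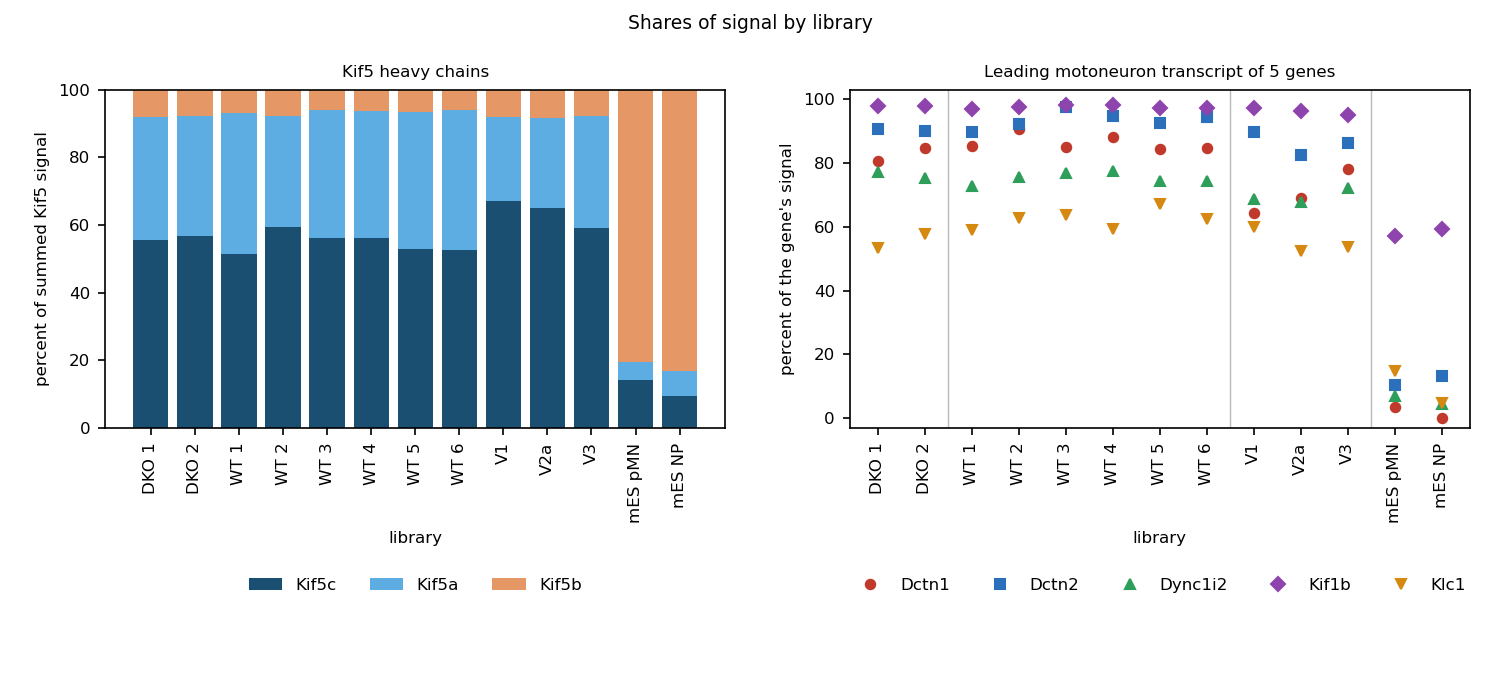
Left, percent of the summed Kif5 signal held by Kif5c, Kif5a and Kif5b in each library. Right, percent of the gene's signal held by the transcript that leads in motoneurons, for 5 genes in each library, with grey lines between groups. The 5 genes are Dctn1, Dctn2, Dync1i2, Kif1b and Klc1. Kif5b holds at most 8.36% in neurons and at least 80.4% in mES progenitors, and the transcript shares drop in the mES libraries.

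Kinesin light chains join Kif5 to its cargo. Klc1 had the highest signal of the 58 genes in all 8 motoneuron libraries, with 8118 and 7372 in DKO libraries, 7834, 8897 and 10300 (lowest, median and highest) in WT motoneurons, 4842 in V1, 6024 in V2a and 7563 in V3, and 925 in mES pMN and 539 in mES NP. It rose in WT motoneurons by 3.67 ± 0.20 log2 units against mES progenitors (adjusted p = 9.63e-08, limma). Against interneurons it rose by 0.57 ± 0.15 (adjusted p = 0.0137, limma), a call lost without V1 (0.41, adjusted p = 0.057). Klc2 rose by 2.30 against mES progenitors (adjusted p = 2.09e-07, limma) and by 0.48 against interneurons (adjusted p = 0.00647, limma). Klc4 rose by 1.40 against mES progenitors (adjusted p = 6.16e-05, limma), and its difference from interneurons was -0.24 (adjusted p = 0.214, limma).

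Klc3 had low signal in neurons: 1.44 and 3.43 in DKO motoneurons, 4.64, 7.29 and 11.3 (lowest, median and highest) in WT motoneurons, and 3.10 in V1, 0.597 in V2a and 1.90 in V3. It had 63.0 in mES pMN and 223 in mES NP. It fell by 3.83 log2 units in WT motoneurons against mES progenitors (adjusted p = 4.02e-05, limma) and rose by 1.66 against interneurons (adjusted p = 0.00875, limma). The interneuron call was lost when the transcript with the highest mean stood for the gene (1.05, adjusted p = 0.276). In all, 1 DKO library and 1 interneuron library lay under the signal of 3 reads, and Klc3 shares 744 exonic bases with Ercc2, so reads of the overlap cannot be assigned without strand.

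Klc2 was 1 of the 3 genes lower in DKO motoneurons. It had 865 and 833 in DKO libraries, against 999, 1276 and 1375 (lowest, median and highest) in WT motoneurons. The groups did not overlap, as was so for 30.8% of all genes, and the log2 difference was -0.55 ± 0.12 (SE, adjusted p = 0.023, limma). With DKO replicate 1 or DKO replicate 2 left out, the difference was -0.58 (adjusted p = 0.178) or -0.52 (adjusted p = 0.212). These fits leave 1 DKO library, whose spread is then taken from the WT group alone, and over all genes the share called was 0.615% or 0.764%, against 8.22% with both, so a call lost in them is no measure of stability. With both DKO libraries kept, Klc2 also lost its call with WT replicates 2, 3 and 4 alone (-0.47, adjusted p = 0.0551, limma). That fit called 15.5% of all genes. A replicate block gave -0.39 in Klc2 (adjusted p = 0.318, limma), where 1.77% of all genes were called. Klc1, the abundant light chain, had a difference of -0.22 (adjusted p = 0.326, limma) with groups that overlapped.

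The Kif1 motors carry synaptic vesicle precursors (Kif1a and a form of Kif1b), mitochondria (another form of Kif1b) and dense-core vesicles (Kif1a and Kif1c). Kif1a had a signal of 2125, 2957 and 3141 (lowest, median and highest) in WT motoneurons, against 1750 in V1, 1789 in V2a and 1871 in V3, and 110.0 in mES pMN and 174 in mES NP. It rose by 4.31 ± 0.21 log2 units against mES progenitors (SE, adjusted p = 3.38e-08, limma) and by 0.61 ± 0.13 against interneurons (adjusted p = 0.00651, limma). In DKO motoneurons it had 2157 and 2143, inside the WT range, and its difference of -0.36 had an adjusted p of 0.173. Kif1b rose by 2.38 against mES progenitors (adjusted p = 1.55e-06, limma) and differed from interneurons by 0.14 (adjusted p = 0.476, limma). Kif1c fell by 2.32 against mES progenitors (adjusted p = 3.77e-05, limma): it held 0.949% to 2.54% of the summed Kif1 signal in WT motoneurons, against 34.5% in mES pMN and 40.5% in mES NP.

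Kif3a pairs with Kif3b or Kif3c and works in cilia and in axons. Kif3a had a signal of 1082, 1207 and 1518 (lowest, median and highest) in WT motoneurons, against 845 in V1, 879 in V2a and 819 in V3, and 132 in mES pMN and 216 in mES NP. It rose by 2.86 ± 0.19 log2 units against mES progenitors (adjusted p = 3.39e-07, limma) and by 0.54 ± 0.11 against interneurons (adjusted p = 0.00343, limma). Kif3b rose by 1.87 against mES progenitors and by 0.39 against interneurons (adjusted p = 0.0142, limma). Kif3c rose by 3.40 against mES progenitors (adjusted p = 1.31e-08, limma), and 2617 of its exonic bases are shared with an antisense gene. Its difference from interneurons was 0.13 (adjusted p = 0.33, limma). In DKO against WT motoneurons Kif3a, Kif3b and Kif3c differed by -0.04, -0.15 and 0.002 and none was called (adjusted p at least 0.433).

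Among the remaining transport kinesins, Kifc2, a neuronal motor that walks to the minus end, rose by 3.15 log2 units in WT motoneurons against mES progenitors (adjusted p = 1.87e-05, limma) and Kif21a by 1.59 (adjusted p = 0.00106, limma). Kif13b fell by 1.52 (adjusted p = 3.3e-05, limma). Over the list of 20, 13 rose and 4 fell against mES progenitors, with a median of 2.08, while 8 rose and 1 fell against interneurons, with a median of 0.27. Kif13a, a motor of recycling endosomes, had 163 and 141 in DKO motoneurons, 192, 213 and 258 (lowest, median and highest) in WT motoneurons, 99.96 in V1, 130 in V2a and 146 in V3, and 232 in mES pMN and 204 in mES NP. It rose by 0.83 ± 0.15 against interneurons (adjusted p = 0.00191, limma) and fell by 0.54 ± 0.14 in DKO against WT motoneurons (adjusted p = 0.0382, limma). The DKO call was lost without DKO replicate 1 or 2 and without WT replicate 3, 4, 5 or 6 (adjusted p 0.0595 to 0.322). In DKO against WT motoneurons, 1 of the 20 rose and 2 fell, with a median of -0.09, and the list's summed signal was 27170 to 28060 in DKO and 25700 to 30910 in WT motoneurons. Kif16b, of early endosomes, and Kif17, studied for transport of glutamate receptors into dendrites, passed no threshold in any of the 3 comparisons.

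Kif21b, a neuronal motor that also restrains microtubule growth, had the largest difference of any motor gene in DKO motoneurons. It had a signal of 2059 and 1950 in the DKO libraries, against 476, 508, 592, 711, 811 and 874 in the 6 WT motoneuron libraries, 2632 in V1, 2224 in V2a and 2348 in V3, and 108 in mES pMN and 106 in mES NP. Both DKO libraries lay above the highest WT motoneuron library and under all 3 interneuron libraries. The summed V1 interneuron markers were 395 to 406 in DKO and 121 to 402 in WT motoneurons, and the summed V2a interneuron markers 241 to 251 in DKO and 72.6 to 240 in WT motoneurons. In both DKO libraries, 1 of 4 V1 markers (Foxd3) and 1 of 4 V2a markers (Slc17a6) lay above every WT library, and 0 of 3 V3 markers did. The V1 marker En1 had 2.05 and 1.96 in DKO and 2.73 to 40.9 in WT motoneurons, and the V3 marker Sim1 had 0.355 and 0.68 in DKO and 0.241 to 4.13 in WT motoneurons, so that no DKO value of either lay above the WT range. Means were 2005 ± 77.3 in DKO and 662 ± 163 in WT motoneurons (SD, n = 2 and 6 libraries), a 3.03-fold difference and 1.63 ± 0.22 log2 units (SE, adjusted p = 0.00243, limma). Without DKO replicate 1 the difference was 1.59 with an adjusted p of 0.0593, and in the other 7 fits that left out 1 library the adjusted p was at most 0.0422. Against interneurons, WT motoneurons were lower by 1.89 log2 units (SE 0.19, adjusted p = 7.49e-05, limma), and against mES progenitors they were higher by 2.58 (SE 0.23, adjusted p = 3.45e-06, limma). Since the same WT libraries stand in each of these comparisons, they are not independent. Among the 20 transport kinesins, Kif21b was the 1 called lower in WT motoneurons than in interneurons and the 1 called higher in DKO than in WT motoneurons, and its difference from the others was not tested. Its share of the summed Kif21 signal was 71.3% to 72.6% in DKO motoneurons, 32.9% to 53.6% in WT motoneurons, 75.7% to 78.7% in interneurons and 18.9% to 40.1% in mES progenitors.

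Kif21b lies at chr1:136131389-136177998 on the plus strand (GENCODE M21, GRCm38), and its annotated 3′ UTR of 3907 bases held 4 matches to the miR-218 seed. The mature miRNA from RefSeq is shown with bases 2 to 8, the seed, in capitals. The sites from GENCODE M21, shown because Kif21b was the single motor gene with a full 8-base match, lie at chr1:136176397-136176404, chr1:136176420-136176426, chr1:136177143-136177150 and chr1:136177853-136177859, with the matched bases in capitals.
mmu-miR-218-5p: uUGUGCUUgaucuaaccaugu
Kif21b site 1: cttcttgtcggAAGCACAAactggttgtaa
Kif21b site 2: gttgtaatttgAGCACAAtagcaggtctc
Kif21b site 3: agggcagcttaAAGCACAAacaaggagaag
Kif21b site 4: tgtgacgtagtAGCACAAggtgtgtatat
Kif13a site: tcccctttcctAAGCACActgagaaatcg
Kif24 site: agaggttagggAGCACAAgttgagccaac
The first and the third Kif21b site are AAGCACAA (8mer) and the other 2 are AGCACAA (7mer-A1). AAGCACA (7mer-m8) and AGCACAA overlap within AAGCACAA, and each position was counted in its longest form, on the transcribed strand. The Kif13a site, at chr13:46749873-46749879 on the minus strand, is a 7mer-m8, and the Kif24 site, at chr4:41391743-41391749 on the minus strand, is a 7mer-A1. Of the 58 genes, 11 (19%) held any such match in an annotated 3′ UTR, where 20.2% of 19161 genes did, and 1 (1.72%) held an 8mer, where 4.3% did. Of the 11 genes with a match, 2 were called higher and 1 lower in DKO against WT motoneurons, with a median log2 difference of 0.04. Of the 45 tested genes without one, 1 was called higher and 2 lower, with a median of -0.19. These 45 include all 12 mitotic motors (median -0.62) and all 6 dynactin subunits (median -0.30), so the 2 sets differ in their make-up. The difference between the 2 medians was not tested. The remaining matches lay in Dync1i2, Dync1li1, Kif13b, Kif1b, Kif2a, Kif3b, Kif3c and Klc1, none of which was called. Klc2, Dctn1 and Dynll2, called in this comparison, held no match in their annotated 3′ UTRs.

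**Figure D4:**
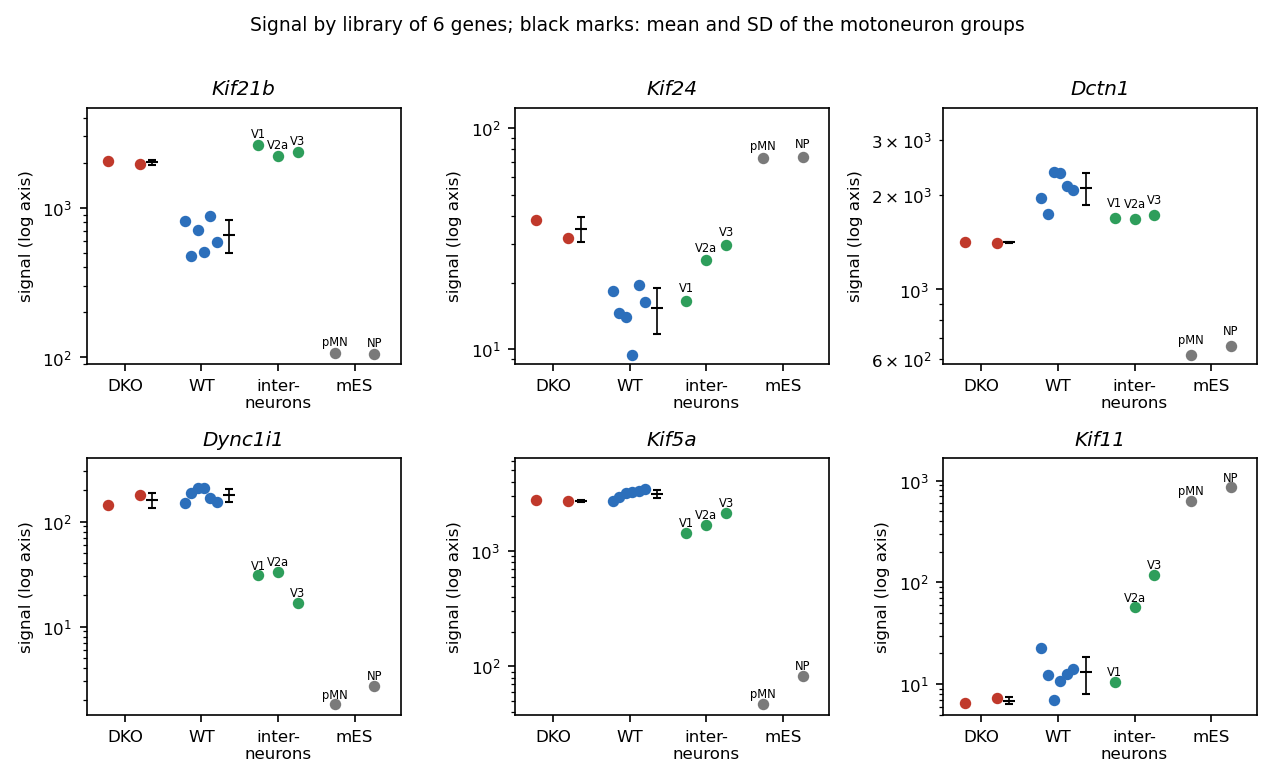
Signal of 6 genes (log axes) in each library, grouped as DKO motoneurons, WT motoneurons, interneurons and mES progenitors, with the mean and SD of the motoneuron groups in black. Kif21b lies at 1950 and 2059 in DKO and at most 874 in WT motoneurons, and Dync1i1 is at least 142 in all motoneurons and at most 33.3 in interneurons.

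Dynein is a dimer of heavy chains (Dync1h1) with intermediate chains (Dync1i1 and Dync1i2), light intermediate chains (Dync1li1 and Dync1li2) and light chains (Dynll1, Dynll2 and Dynlt3). Dync1h1, the motor itself, had a signal of 2118 and 2008 in DKO motoneurons, 1192, 1985 and 2328 (lowest, median and highest) in WT motoneurons, 1623 in V1, 1982 in V2a and 2169 in V3, and 1133 in mES pMN and 872 in mES NP. The neuron groups overlapped. It rose by 0.87 ± 0.25 log2 units in WT motoneurons against mES progenitors (adjusted p = 0.00908, limma), a call lost without mES NP (0.69, adjusted p = 0.13), and its differences from interneurons (-0.07) and in DKO (0.18) passed no threshold (adjusted p 0.815 and 0.641, limma).

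Dync1i1, the intermediate chain known mainly from neurons, set motoneurons apart. It lies at chr6:5725639-6028039 on the plus strand (GENCODE M21, GRCm38). It had a signal of 142 and 178 in DKO motoneurons and 150, 177 and 210 (lowest, median and highest) in WT motoneurons, against 30.6 in V1, 33.3 in V2a and 16.9 in V3, and 1.82 in mES pMN and 2.73 in mES NP. Every motoneuron library lay above every interneuron library. WT motoneurons were 6.63-fold higher than interneurons, or 2.73 ± 0.22 log2 units (SE, adjusted p = 1.77e-05, limma), the largest rise of any motor gene in this comparison. Against mES progenitors the difference was 5.78 ± 0.22 (adjusted p = 7.08e-09, limma). The difference between DKO and WT motoneurons was -0.15 (adjusted p = 0.593, limma). Dync1i2, the widely expressed chain, was the more abundant: Dync1i1 made up 3.71% to 4.43% of the 2 intermediate chains in DKO motoneurons, 3.76% to 5.72% in WT motoneurons, 0.558% to 1.24% in interneurons and 0.214% to 0.251% in mES progenitors.

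The deposited transcript values split Dync1i1 further. The transcript that led in WT motoneurons, NM_010063, had a signal of 126, 152 and 180 (lowest, median and highest) in the 6 libraries and 142 and 96.3 in the 2 DKO libraries, against 7.90 in V2a and a listed 0 in V1 and V3. The difference between WT motoneurons and interneurons, taken on the transcript with the highest mean, was 6.19 log2 units (adjusted p = 9.6e-05, limma). Reads shared by transcripts of a gene were divided by the authors' estimate, so a listed 0 can be a failed estimate.

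Dync1i2 rose by 1.91 log2 units in WT motoneurons against mES progenitors (adjusted p = 5.65e-06, limma) and by 0.41 against interneurons (adjusted p = 0.0425, limma). The second call was lost without WT replicate 3, 4 or 6, V2a or V1 (adjusted p 0.0542 to 0.133). Dync1li2 rose by 1.17 (adjusted p = 0.000125, limma) and Dync1li1 by 0.72 (adjusted p = 0.000816, limma) against mES progenitors, and neither was called against interneurons (0.05 and 0.02).

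Of the light chains, Dynlt3 had 194 and 252 in DKO motoneurons, 261, 296 and 427 (lowest, median and highest) in WT motoneurons, 87.6 in V1, 98.4 in V2a and 115 in V3, and 105 in mES pMN and 318 in mES NP. It rose by 1.62 ± 0.16 log2 units against interneurons (adjusted p = 6.31e-05, limma), with no overlap. Dynll1, a light chain that binds many other proteins, rose by 0.58 against interneurons (adjusted p = 0.0204, limma), a call lost without V1 (0.36, adjusted p = 0.0738), and differed by -0.03 from mES progenitors (adjusted p = 0.889, limma). Dynll2, its close relative, was 1 of the 3 genes higher in DKO motoneurons. It had 5135 and 5267 in DKO libraries, against 3026, 3437 and 4333 (lowest, median and highest) in WT motoneurons. The difference was 0.55 ± 0.14 log2 units (SE, adjusted p = 0.0342, limma) and lost its call without DKO replicate 1 or 2 or WT replicate 3 or 4 (adjusted p 0.0609 to 0.249). Against mES progenitors Dynll2 rose by 0.42 (adjusted p = 0.0353, limma), a call lost without WT replicate 5 or 6, mES pMN or mES NP (adjusted p 0.0623 to 0.119). Over the 8 dynein subunits, 6 rose and none fell against mES progenitors (median 0.81), 4 rose and none fell against interneurons (median 0.23), and 1 rose and none fell in DKO against WT motoneurons (median 0.08).

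Dynactin links dynein to cargo and starts its runs along the microtubule. All 6 subunits measured rose in WT motoneurons against mES progenitors, by 1.72 log2 units in Dctn1, the microtubule-binding arm, 1.23 in Dctn6, 0.94 in Dctn4 and 0.86 in Dctn5, all of the pointed end, 0.74 in Dctn2 and 0.54 in Dctn3, of the shoulder. Dctn3 was not called without mES NP (0.26, adjusted p = 0.219). Against interneurons 3 of 6 rose: Dctn6 by 0.62 ± 0.09 (adjusted p = 0.00062, limma), Dctn5 by 0.36 and Dctn2 by 0.34. Dctn5 was not called without V1 (0.26, adjusted p = 0.0967), and Dctn2 was not called without WT replicate 3, 4 or 6 or any of the interneuron libraries (adjusted p 0.0517 to 0.0898). Dctn1 missed the threshold (0.30, adjusted p = 0.0518, limma), with separate groups, and passed it without WT replicate 1 (adjusted p = 0.049) or 2 (adjusted p = 0.0118).

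In DKO motoneurons Dctn1 fell, and it was the 1 dynactin subunit called. It had 1421 and 1412 in DKO libraries, against 1739, 2114 and 2372 (lowest, median and highest) in WT motoneurons, 1694 in V1, 1679 in V2a and 1732 in V3. Both DKO libraries lay under all WT and all interneuron libraries. The log2 difference from WT motoneurons was -0.57 ± 0.13 (SE, adjusted p = 0.0228, limma). With DKO replicate 1 or DKO replicate 2 left out, the difference was -0.57 or -0.56. The call was lost in both fits, which leave 1 DKO library and so are no measure of stability. A replicate block, which kept both DKO libraries, gave -0.38 and also lost the call (adjusted p = 0.332, limma), where 1.77% of all genes were called. Dctn5 (-0.36, adjusted p = 0.0612), Dctn3 (-0.39, adjusted p = 0.0821) and Dctn4 (-0.24, adjusted p = 0.347) had lower values in both DKO libraries than in any WT library without passing the limma threshold, so that groups of 4 of the 6 subunits did not overlap, where 30.8% of all genes did not. The summed neuron markers lay lower in DKO than in every WT library, as given above, and their part in this was not tested.

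**Figure D5:**
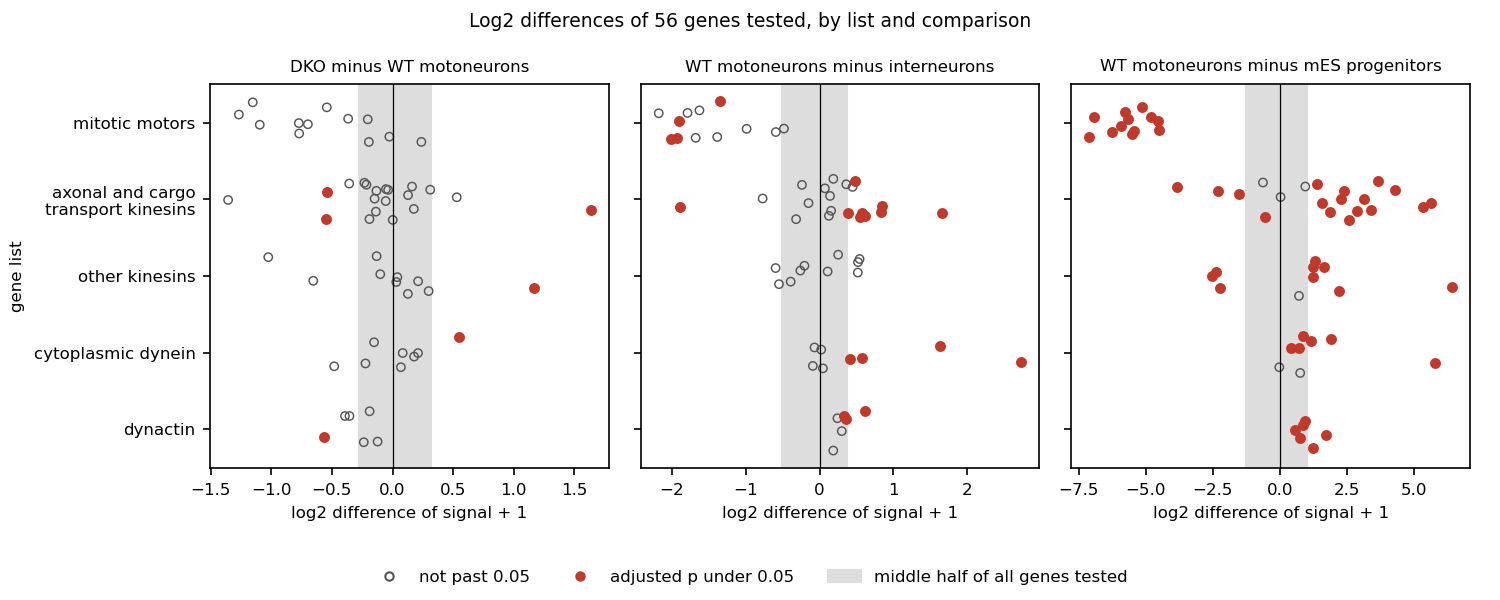
Log2 difference of signal + 1 of each of 56 tested genes, by list (rows) and comparison (panels), with filled points for an adjusted p under 0.05 and a grey band between the quartiles of all genes tested. The scales of the panels differ: the mitotic motors lie between -7.11 and -4.53 against mES progenitors and between -1.27 and 0.24 in DKO against WT motoneurons.

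In several genes the shares of the transcripts differed widely between WT motoneurons and mES progenitors. By a rule chosen after these values were seen (a share of the gene's signal that differs by at least 30 percentage points, groups that do not overlap, a gene signal of at least 50 in every library), 6 of 11 eligible motor genes did so between WT motoneurons and mES progenitors, where 15.9% of 2157 genes did. No test was run on shares. None of 13 eligible motor genes met it against interneurons, where 1.3% of 2462 genes did, and none of 14 in DKO against WT motoneurons, where 2.27% of 2597 genes did.

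Dctn1 showed the widest change. Its transcript NM_001198866 held 80.5% to 84.6% of the gene's signal in DKO motoneurons, 84.4% to 90.6% in WT motoneurons and 64.3% to 78.2% in interneurons, against 3.5% in mES pMN and a listed 0 in mES NP. NM_001198867 held 2.58% to 6.32% in WT motoneurons and 96.5% to 98.9% in mES progenitors. Its partner Dctn2 changed likewise, with NM_001190453 at 89.6% to 97.5% in WT motoneurons, against 10.3% to 13.2% in mES progenitors. In Dync1i2, NM_001198874 held 72.7% to 77.4% in WT motoneurons and 4.43% to 6.88% in mES progenitors, while NM_001198876 was listed at 0 in all 11 neuron libraries and held 28% to 50.5% in mES progenitors. In Kif1b, NM_207682 held 97% to 98.2% in WT motoneurons and 57.2% to 59.4% in mES progenitors. In Klc1, NM_001025358 held 59.0% to 67.3% in WT motoneurons and 4.89% to 14.7% in mES progenitors. In Kif21a, NM_016705 held 3.2% to 12.2% in WT motoneurons and 46.2% to 50.7% in mES progenitors.

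The other kinesins hold regulators of microtubule ends, cilia and signalling. Kif24, which binds a cap of the mother centriole and holds back cilia, was higher in DKO motoneurons. It had 38.3 and 31.9 in DKO libraries, against 9.46, 15.4 and 19.5 (lowest, median and highest) in WT motoneurons, 16.5 in V1, 25.2 in V2a and 29.6 in V3, and 73.0 in mES pMN and 74.2 in mES NP. Both DKO libraries lay above every WT motoneuron and interneuron library. The difference was 2.29-fold, or 1.17 ± 0.29 log2 units (SE, adjusted p = 0.0355, limma), and lost its call without DKO replicate 1 or 2 or WT replicate 3 or 6 (adjusted p 0.054 to 0.281). Against mES progenitors Kif24 fell by 2.22 in WT motoneurons (adjusted p = 8.96e-05, limma).

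Kif26b, a kinesin without motor activity, had 251, 372 and 505 (lowest, median and highest) in WT motoneurons, against 2.51 in mES pMN and 4.24 in mES NP. It rose by 6.42 ± 0.30 log2 units (adjusted p = 2.97e-08, limma), the largest rise of any motor gene against the progenitors. It shares 909 exonic bases with an overlapping gene. Its relative Kif26a had 125 to 229 in WT motoneurons, against 52.9 in V1, 863 in V2a and 471 in V3, a 16.04-fold range among interneurons. Kif26b ran otherwise, with 393 in V1, 114 in V2a and 365 in V3. Kif7, a motor of the cilium tip in hedgehog signalling, fell by 2.39 against mES progenitors (adjusted p = 0.000117, limma), and Kif19a, which trims cilia, by 2.53 (adjusted p = 0.000551, limma). Kifc3 rose by 2.21 (adjusted p = 2.76e-05, limma), Kif9, known from motile cilia, by 1.63, Kif2a, a depolymerase that limits axon branches, by 1.30, Kif26a by 1.25 and Kif27 by 1.25. Without mES pMN, Kif26a (0.62, adjusted p = 0.121) and Kif27 (0.62, adjusted p = 0.0649) were not called. Against interneurons 0 of 10 other kinesins were called by limma, none had an unadjusted p under 0.05, and 5 were called with array weights, where 55.7% of all genes were.

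Between the progenitor libraries, with 1 library each and no test, 8 of the 51 motor genes with a mean of at least 10 differed at least 2-fold on signal + 1. Over all 13215 genes 20.7% did, so the count is no result about the motors. Kif21a was 2.91-fold higher in mES pMN, with 462 in mES pMN and 158 in mES NP, and Kifc1 2.07-fold higher, with 1227 in mES pMN and 592 in mES NP. The table also holds a near-identical copy of Kifc1, so its level is uncertain. Higher in mES NP were Klc3 (3.50-fold), Dynlt3 (3.01-fold), Kifc2 (2.49-fold), Kif27 (2.39-fold), Kif26a (2.39-fold) and Kif16b (2.37-fold). Klc3 had 63.0 in mES pMN and 223 in mES NP.

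Partners of the motors were measured beside them, in a list of 37 adaptors, regulators and further subunits. Of 35 tested in DKO against WT motoneurons, 1 rose (Bicd1, a dynein adaptor, 0.74, adjusted p = 0.0311, limma) and 1 fell (Mapk8ip2, a scaffold that binds kinesin light chains, -0.54, adjusted p = 0.0313, limma). Over all genes, 3.3% were called higher and 4.92% lower in that comparison. Against interneurons 13 of 36 rose and 1 fell, where 17.8% of all genes were called higher and 15.3% lower. None of these calls reached 2-fold. Against mES progenitors 30.1% of all genes were called higher and 36.3% lower. Of the 36 partners, 20 rose there. Among them were Mapk8ip2 (5.28 log2 units), Fez1, a kinesin adaptor (3.63), and Dynlt1a, a dynein light chain (2.62). A further 6 fell, among them Cenpe, a kinetochore kinesin outside the symbol rule, (-5.84), Spdl1, which brings dynein to kinetochores (-5.09), and Nde1, a dynein regulator of dividing cells (-4.71).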

How the data were processed

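Poly(A)-selected RNA-seq (TruSeq v2, which does not mark strand) of 13 mouse samples was read from a gene table and a transcript table. The authors deposited a signal per gene and per transcript, scaled for length and between libraries; the submitters' processing notes name DESeq, bedtools, mm9 and mm10, while an aligner is not given in the sources used here. As these values are not counts, depth was estimated from the steps between low values. The gene with the highest mean stood for a symbol. Differences were tested on log2(signal + 1) with limma 3.58.1 (trend, R 4.3.3; two-sided) over genes whose mean signal reached 1, adjusted by the Benjamini-Hochberg method and called under 0.05, after tests on simulated data. V1, V2a and V3 stood as 3 members of 1 interneuron class and mES pMN and mES NP as 2 members of 1 progenitor class. The genes and gene lists were chosen with earlier results of these data known. Named genes were those past the threshold, up to 8 per list and comparison by size, plus a fixed set (Kif11, Kif23, Kif20b, Kif1a, Kif5a, Kif5b, Kif5c, Kif3a, Kif21b, Klc1, Dync1h1, Dync1i1, Dync1i2 and Dctn1), and partner genes at least 2-fold changed, up to 6 per comparison. The alternatives were other pseudocounts, filters, scaling, array weights, transcript choice, a replicate block, subsets of WT libraries and leaving out each library. The level of 1 marker gene is not reported here.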

Additional observations from a re-analysis of the deposited data

Results flagged for a closer look

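Within the 6 WT motoneuron libraries, 1 library stood apart from the others in 6 of the 58 genes by Dixon's test at the 95% level. The nominal rate of about 1 of 20 genes holds for normally distributed values. The share of all genes flagged by this rule was not computed, so the count is no result about the motors. Dynlt3 had 426.8 in WT replicate 2 (next 315.9), Kif5b 701.7 in WT replicate 2 (next 531.4) and Klc2 999.3 in WT replicate 2 (next 1237). Kif18a had 9.999 in WT replicate 1 (next 3.311) and Kif1b 1644 in WT replicate 1 (next 2504). Kif12 had 0.7267 in WT replicate 6 and was listed at 0 in the other libraries of that group.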

How the results depend on the processing

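Of DKO against WT motoneurons, 6 motor genes were called, against 17 with array weights, 3 with the transcript of highest mean, 1 with a replicate block and 10 with WT replicates 1, 5 and 6 alone, and 0 to 10 when 1 library was left out (0 without DKO replicate 1, 1 without DKO replicate 2). Calls over all genes moved too: 8.22%, against 23.1%, 5.46%, 1.77% and 14.6% in the same order, and 99 to 2064 genes when 1 library was left out. The deviations of same-numbered DKO and WT libraries from their group means had correlations of -0.026 and 0.013. With 2 DKO libraries the deviations of each mirror those of the other, so these values cannot show whether the numbers pair libraries. No paired analysis was possible for interneurons or mES progenitors because the labels give them no shared numbers. Against interneurons, 20 were called, against 36 with array weights and 13 with WT replicates 1, 5 and 6 alone, and 14 to 24 when 1 library was left out, where all-gene calls were 33.1%, 55.7%, 21.5% and 3679 to 5657 genes. Against mES progenitors, 50 were called and 45 to 51 under the alternatives run. Over all genes 66.4% were called in that comparison, and 51.3% to 72.2% under the alternatives. Signs reversed in values near 0. In DKO these were Kif3a (0.01 with array weights, 0.02 without WT replicate 2, 0.07 with WT replicates 1, 5 and 6 alone; leaving out 1 library gave -0.07 to 0.02), Kif20b (-0.56 to 0.50 when 1 library was left out, the highest without DKO replicate 1, 0.003, 0.04 and 0.04 without WT replicates 1, 2 and 6, 0.08 with WT replicates 2, 3 and 4 alone), Dync1i1 (-0.31 without DKO replicate 2 to 0.01 without DKO replicate 1, 0.03 with WT replicates 1, 5 and 6 alone), Kif5c (0.01 with the replicate block, 0.10 with WT replicates 1, 5 and 6 alone) and Dync1i2 (-0.06 with the replicate block, -0.09 with WT replicates 2, 3 and 4 alone). Against interneurons they were Kif5b (-0.04 with array weights, -0.01 without WT replicate 2 to 0.12 without WT replicate 1, -0.04 with WT replicates 1, 5 and 6 alone), Dync1h1 (-0.19 without V1 to 0.06 without WT replicate 1, 0.02 without V3) and Kif5c (-0.002 with WT replicates 1, 5 and 6 alone). The cause of these changes was not tested. Over the named genes, 1668 values kept their sign and side of the threshold, 95 lost and 18 gained a call and 20 reversed. The shallower DKO library had about 7.46 M reads, so its values of genes under the signal of 3 reads rest on few reads.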
